A study of Mus musculus with 4 samples.

Results

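The dystrophin-glycoprotein complex genes examined here were 8 genes taken by name from the GENCODE M21 annotation of the mouse genome build mm10, out of 21755 protein-coding genes. Of these, 5 were grouped as muscle members, namely Dmd, Sgca, Sgcb, Sgcd and Sspn, and 3 as widely expressed members, namely Dag1, Utrn and Dtna. Open chromatin had been profiled by ATAC-Seq, in which the transposase Tn5 inserts adapters into accessible DNA, on nuclei sorted from whole hearts of male C57BL/6 mice of 8 to 12 weeks that carried NuTRAP and Cdh5-Cre. In these animals Cre is driven by regulatory DNA of Cdh5, the gene of the endothelial junction protein VE-cadherin, and switches on a GFP reporter. GFP+ nuclei were taken as endothelial and GFP- nuclei as non-endothelial, so the latter hold cardiomyocytes, fibroblasts, mural cells and any other cell of the heart together. Both populations carried the same alleles, no wild-type animals or treatments were included, and the number of animals behind each library is not given in the sources used here. There were 4 libraries, 2 of each population, made from 100 to 50000 nuclei.

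The authors called peaks from both replicates together, so each population is represented by a single list of peaks and no value below has a replicate error or a test. The GFP- list held 78912 peaks that covered 52.1 Mb, and their median length was 469 bp. The GFP+ list held 65008 peaks that covered 41.8 Mb, and theirs was 459 bp. The authors brought the libraries to a common read number before calling peaks, and the number of reads behind each peak is unknown. The strength of a peak is given by its area, the signal summed by the peak caller over the length of the peak, and is expressed as a rank, the percentile of that area within the peak's own list, on which 100 marks the largest peak. A rank compares the order of peaks within 2 lists and not the amount of open chromatin in a nucleus. In sorted bulk nuclei, fewer nuclei of a type and less accessible DNA per nucleus cannot be told apart.

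Dystrophin, the product of Dmd, ties cortical actin inside the muscle fibre to dystroglycan in the membrane, and dystroglycan, cut from the Dag1 product, binds laminin outside the cell. The sarcoglycans, with sarcospan from Sspn beside them, brace dystroglycan in the membrane, and loss of dystrophin causes muscular dystrophy with cardiomyopathy. Utrophin, from Utrn, is a homologue of dystrophin that is made in many tissues, and alpha-dystrobrevin, from Dtna, joins dystrophin or utrophin to syntrophins and signalling proteins.

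All 8 genes had open chromatin at a transcript start in both populations, and their strongest start peaks took nearly the same place in the 2 lists. A start peak was one that touched a window of 250 bp to either side of any annotated transcript start, and starts whose windows touched were counted as 1 start site. Over all protein-coding genes, 61.8% had a start peak in the GFP- list, 59.8% in the GFP+ list and 58.8% in both, and among genes with one in either list this share was 93.8%. The difference in rank, GFP+ minus GFP-, had a median of -0.898 over the 8 genes and -0.814 over all 13643 genes with a start peak in either list. The rank was lower in GFP+ nuclei in 6 of the 8 genes, beside 71.4% of all such genes. In 7 of the 8 genes the ranks lay within 5 points of each other, beside 75.6% of all such genes. Among the 7, Sgca had its strongest peak at different starts in the 2 lists, so its value of 3.69 is not a change at 1 start. None of the 8 differed by more than 20 points, beside 7.33% of genes lower and 1.94% higher in GFP+ nuclei. The median difference was -1.15 in the muscle members and -0.645 in the widely expressed members, and the sign of the gap between these groups changed with the way peaks were ranked and with the start sites admitted.

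Dmd is transcribed from several starts spread over its 2257 kb on the X chromosome (chrX:82948870-85206141), and 2 of its 9 annotated start sites carried a peak, the same 2 in both lists. The start of the full-length muscle transcript Dmd-203, where Dmd-205 also begins, lay under a peak of 421 bp in the GFP- list, at rank 70.0, and under one of 383 bp in the GFP+ list, at rank 70.4. The start of the short transcripts Dmd-201 and Dmd-202, which lies in intron 62 of Dmd-203 at 2099 kb from the first start, had a GFP- peak of 662 bp at rank 68.8 and a GFP+ peak of 720 bp at rank 67.9. Transcripts from this region encode the short, widely made dystrophins that lack the actin-binding part. The other 7 sites, among them those of Dmd-210 in intron 29 and Dmd-214 in intron 55, had no peak in either list.

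The 250 bases before these starts differ in composition, and they are printed here with those of Dag1 because all had peaks of like rank in both lists. Each is written 5′ to 3′ on the strand of the gene, from RefSeq promoters on GRCm38, the assembly behind mm10. Capitals mark matches on either strand to 7 short motifs, which were the binding motifs known as MEF2 and the CArG box and 5 fixed words, namely the E-box CAGCTG, the GATA factor word GATAAG, the TEAD factor word CATTCC, the ETS factor word CGGAAG and the GC-box GGGCGG. The word CAGCTG reads the same on both strands, and matches that overlap share their capitals.
Dmd full-length start, chrX:82948620-82948869, plus strand: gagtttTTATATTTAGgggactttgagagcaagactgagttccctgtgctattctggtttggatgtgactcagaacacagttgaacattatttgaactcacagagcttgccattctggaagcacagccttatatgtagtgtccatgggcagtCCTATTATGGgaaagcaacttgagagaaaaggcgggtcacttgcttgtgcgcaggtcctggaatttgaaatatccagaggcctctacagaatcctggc
Dmd short-form start, chrX:85048045-85048294, plus strand: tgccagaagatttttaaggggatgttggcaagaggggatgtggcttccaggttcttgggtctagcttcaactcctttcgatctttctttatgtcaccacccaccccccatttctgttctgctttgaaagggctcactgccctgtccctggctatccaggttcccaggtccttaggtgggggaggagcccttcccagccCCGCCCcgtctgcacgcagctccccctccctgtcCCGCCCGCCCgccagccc
Dag1 start, chr9:108263959-108264208, minus strand: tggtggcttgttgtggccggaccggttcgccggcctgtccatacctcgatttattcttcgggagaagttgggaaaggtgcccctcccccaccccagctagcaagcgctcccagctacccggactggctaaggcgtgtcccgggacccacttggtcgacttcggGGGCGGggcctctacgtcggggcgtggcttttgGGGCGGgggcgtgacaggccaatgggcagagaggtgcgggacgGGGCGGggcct

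The first of these held 1 MEF2 match and 1 CArG match, had a GC content of 45.2% and 2 CpG dinucleotides. Of 32841 RefSeq promoters searched over the same 250 bases, 2.92% held a MEF2 match and 1.47% a CArG match. The short-form promoter of Dmd held neither, had 3 matches to GGGCGG, of which 2 overlap, and a GC content of 60.0% with 7 CpG. The Dag1 promoter likewise had 3 matches to GGGCGG, a GC content of 67.6% and 21 CpG, and GGGCGG was found in 32.7% of all promoters. RefSeq promoters were at hand for 7 of the 8 genes, 10 promoters in all, and the MEF2 and CArG matches at the full-length start of Dmd were the only ones among them. A match is a run of letters and not a bound site.

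Each sarcoglycan gene among the 8 had at least 1 start with a peak in both lists. Sgca (chr11:94962791-94976327), which encodes the alpha-sarcoglycan of striated muscle, had peaks at each of its 3 start sites in both lists. At the start of Sgca-202 and Sgca-205 the rank was 75.9 in GFP- and 87.7 in GFP+ nuclei. At the start of Sgca-201 and Sgca-204 it was 84.1 and 81.9, and at that of Sgca-203 it was 32.3 and 23.4. The higher GFP+ rank at the first site went with a difference in where the peak began and ended. The GFP+ peak ran over 1814 bp and spanned 2 GFP- peaks that were 142 bp apart, and the summed area of those 2 peaks would stand at rank 88.5 in the GFP- list. The summit of the GFP+ peak lay in intron 1, at 1.23 kb from the start, so this peak is counted both as a start peak and as an intron peak. Sgcb (chr5:73632749-73647790), for beta-sarcoglycan, had its start peak at rank 94.0 in GFP- and 92.8 in GFP+ nuclei, in a peak that also holds a start of the neighbouring Gm43799, and its other start site had none in either list.

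Sgcd (chr11:46896253-47988969), for delta-sarcoglycan, had a peak in both lists at its main start and in the GFP- list alone at a start far upstream. The coding transcript Sgcd-201 had a start peak at rank 85.8 in the GFP- list and 83.6 in the GFP+ list. The noncoding transcript Sgcd-203 begins 609 kb upstream of it, and a GFP- peak of 1239 bp at rank 74.5 covered that start, without any GFP+ peak. Sspn, for the small membrane protein sarcospan (chr6:145931641-145965223), likewise had a start with a peak in the GFP- list alone. Its transcript Sspn-201 had start peaks at rank 90.6 in GFP- and 82.5 in GFP+ nuclei, the only one of the 8 strongest start peaks to differ by more than 5 points. The start of Sspn-202 had a GFP- peak of 565 bp at rank 46.4 and no GFP+ peak, and that of Sspn-203 had none in either list.

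Of the 8 genes, Dag1 and Utrn had the highest-ranked start peaks in both lists. The starts of the 7 transcripts of Dag1 (chr9:108204634-108263958) lie together under a peak of 2771 bp in the GFP- list, at rank 99.1, and of 2209 bp in the GFP+ list, at rank 98.9. Dtna had peaks at rank 88.1 and 84.9 at the first of its 5 start sites and none at the other 4. Utrn (chr10:12382188-12869365) had 5 of its 9 start sites open, and the first 2, of Utrn-205 and Utrn-208, lay in 1 peak of 3007 bp at rank 99.0 in GFP- and of 2858 bp at rank 98.4 in GFP+ nuclei. The start of Utrn-201, 7.63 kb further on, where RefSeq places its Utrn promoter, had no peak in either list.

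Within the second intron of Utrn 2 further starts differed in opposite directions between the populations. The start of Utrn-207 ranked 51.9 in the GFP- list (484 bp) and 17.7 in the GFP+ list (224 bp). The starts of Utrn-202, Utrn-209 and Utrn-210, which lie within 1 peak at 55.8 kb from the first start, had a GFP- peak of 616 bp at rank 48.7 and a GFP+ peak of 661 bp at rank 68.9. This was the only open start site of the 8 genes whose rank was higher in GFP+ nuclei by more than 20 points. Utrn-206, in intron 51, had ranks of 56.6 and 44.8. The 250 bases before the Utrn-202 start are given below because they lie at this exception. They were read from GRCm38, hold none of the 7 motifs and have a GC content of 40.0%. For ETS factors only the word CGGAAG was searched, so ETS sites of other sequence, such as those with AGGAAG, were not counted.
Utrn-202 start, chr10:12813616-12813865, minus strand: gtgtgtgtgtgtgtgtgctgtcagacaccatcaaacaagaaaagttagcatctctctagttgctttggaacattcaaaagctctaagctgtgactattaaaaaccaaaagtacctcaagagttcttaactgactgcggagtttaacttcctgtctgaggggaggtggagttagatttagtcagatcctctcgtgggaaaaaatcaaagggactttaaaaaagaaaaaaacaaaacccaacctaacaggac

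Over the 8 genes there were 36 start sites, of which 15 had a peak in both lists, 2 in the GFP- list alone, 0 in the GFP+ list alone and 19 in neither. Among all start sites of protein-coding genes with a peak in either list, 8.40% were in the GFP- list alone and 3.17% in the GFP+ list alone, beside 2 and 0 of 17 here. The plot of start sites shows the open ones in gene order.

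**Figure D1:**
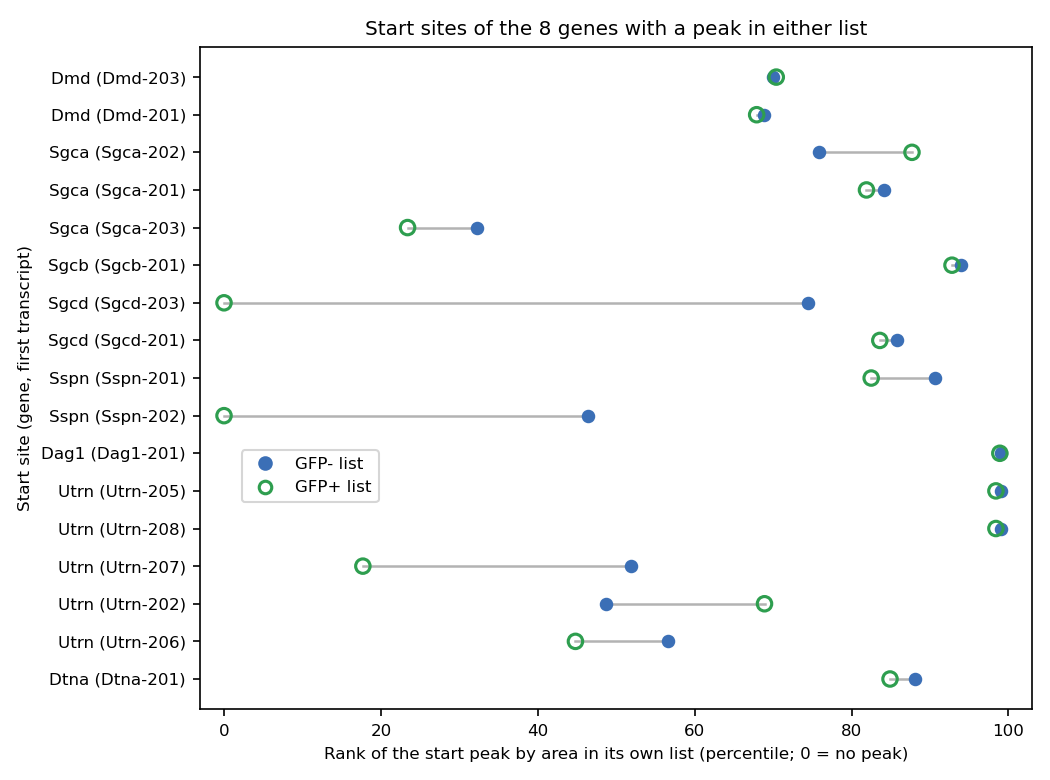
Rank of the start peak by area in its own list (x axis, percentile, 0 for no peak) for the 17 start sites with a peak in either list; filled blue points are the GFP- list and open green circles the GFP+ list, 1 pooled list each, so there are no error bars. Most pairs lie together, while Sgcd-203 (74.5) and Sspn-202 (46.4) have no GFP+ peak and Utrn-202 is higher in the GFP+ list (68.9 beside 48.7).

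Markers of the sorted cell types moved as follows beside these results. Of 6 endothelial markers, 5 ranked higher in the GFP+ list at their starts, and the sixth, Tek, ranked lower, at 81.1 in GFP- and 54.1 in GFP+ nuclei. The largest difference was that of Cdh5, at 18.0 and 85.3, and Pecam1 had a GFP+ peak alone, at 66.9. Tie1 had ranks of 48.3 and 87.9 and Kdr of 74.3 and 90.0. Egfl7 had 72.6 and 98.7, in peaks at different places of the gene. Most endothelial markers thus had a start peak in the GFP- list too. The median difference over the 6 was 32.8 points. All 6 cardiomyocyte markers (Myh6, Tnnt2, Tnni3, Actn2, Ryr2 and Pln) had start peaks in both lists, at ranks of 86.3 and above in GFP- and of 79.6 and above in GFP+ nuclei, with a median difference of -2.66. Of 5 fibroblast markers, Tcf21, Dpt and Col1a2 had no GFP+ start peak, and the median difference was -51.5. Pdgfra and Col1a1 kept high ranks, at 96.5 and 95.6 in GFP- and at 87.0 and 80.7 in GFP+ nuclei. A high GFP+ start rank is therefore not particular to the cardiomyocyte markers or the 8 genes. Of 5 mural markers, Pdgfrb, Rgs5 and Acta2 had no GFP+ start peak, Cspg4 had ranks of 85.6 and 76.1, and Myh11 of 73.7 and 60.3. The median difference over the mural markers was -16.2. Defining markers of macrophages (Ptprc, Csf1r) and glia (Sox10) had no start peak in either list, while Cd68 had one at 31.8 and 16.8. In the GFP+ list the start ranks of these cardiomyocyte markers ran from 79.6 up and those of the 8 genes from 70.4 up, and the part of cardiomyocyte nuclei or DNA among the GFP+ nuclei in the values above was not tested. Per the study's methods, nuclei were gated for single nuclei of diploid DNA content before the GFP gate. The study also stained nuclei for the cardiomyocyte nuclear protein PCM1 and reported that GFP+ and PCM1+ nuclei did not overlap. That result comes from flow cytometry and not from the peak lists used here.

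Of 22 further genes that belong to the complex or act on it, 20 had a start peak in both lists and 21 in either, with a median difference of -0.816, beside 93.8% in both and a median of -0.814 over all genes with a start peak in either list. The caveolin of muscle, Cav3, had ranks of 83.8 and 84.2. Of the 22, 2 were lower in GFP+ nuclei by more than 20 points, beside 7.33% of all genes with a start peak in either list. Both encode matrix proteins, while the matrix genes Agrn, for agrin, at 98.0 and 98.0, and Hspg2, for perlecan, at 98.1 and 99.2, were close in rank. Lama2, the laminin chain that dystroglycan binds in muscle, had a start peak at rank 85.0 in GFP- nuclei and at 11.9 in GFP+ nuclei. Bgn, for the proteoglycan biglycan, ranked 54.7 at its start in the GFP- list and was absent from the GFP+ list. The next largest difference was that of Sgce, for epsilon-sarcoglycan, at 79.9 and 62.3, in a peak shared with a start of Peg10. Sgcz, for zeta-sarcoglycan, had no start peak in either list.

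**Figure D2:**
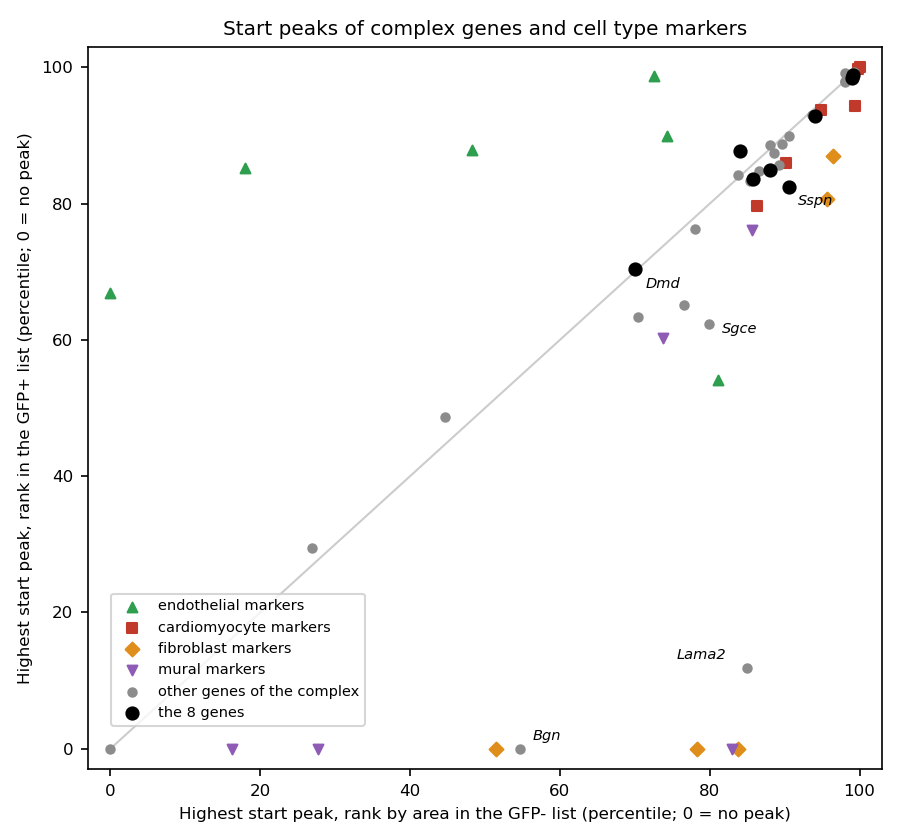
Highest start peak of each gene by rank in the GFP- list (x axis) and the GFP+ list (y axis), both percentiles with 0 for no peak; black points are the 8 genes, grey points 22 other genes of the complex, coloured symbols cell type markers, and the line marks equal ranks. The 8 genes (differences of -8.01 to 3.69) and the cardiomyocyte markers (-6.69 to 0.0659) lie near the line. All fibroblast (-83.8 to -9.41) and mural markers (-83.0 to -9.48) lie below it, some nearly as close to it as Sspn. Lama2 (-73.1), Bgn (-54.7), Sgce (-17.6) and the endothelial marker Tek (-27.0) also lie below it, and 5 of 6 endothelial markers lie above it.

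Along the introns 30 of 56 GFP- peaks of the 8 genes, or 53.6%, met a GFP+ peak, beside 65.9% over all protein-coding genes. Of the 26 that met none, 9 lay in Dtna, so the lower share rested in large part on that gene. An intron peak had its summit inside the gene, in none of its exons and more than 1000 bp from its own starts. The 8 genes held 56 such peaks in the GFP- list and 37 in the GFP+ list. The GFP- list is also the longer one, and with the 50000 largest peaks of each list the counts were 27 and 26, of which 59.3% and 61.5% were overlapped by a peak of the other list. The shares over all genes at that list length are not given here, so these shares have no background beside them. Of the 56 GFP- peaks, 30 were overlapped by a GFP+ peak by at least 1 bp, a share of 53.6% (95% Wilson interval 40.7 to 66.0, for counting error only), beside 65.9% of 31973 GFP- intron peaks of all protein-coding genes. The other 26 had none, beside 34.1%. Of the 37 GFP+ peaks, 31 were overlapped by a GFP- peak, a share of 83.8% (68.9 to 92.3), beside 83.8% of 25768, and 6 were not, beside 16.2%. Peaks of 1 gene are not independent of each other, so these intervals are too narrow by an unknown amount.

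Dmd was nearly bare of intron peaks. Its 2219 kb of intron held 3 GFP- peaks and 1 GFP+ peak, or 0.135 and 0.0451 per 100 kb. Among 2127 protein-coding genes with at least 100 kb of intron the medians were 2.50 and 1.67 per 100 kb, and 14.0% and 16.3% of these genes were as sparse as Dmd or sparser. Among the 102 such genes on the X chromosome, of which male nuclei hold 1 copy, the medians were 0.326 and 0, and 47 and 53 genes were as sparse. Among enhancer regions that the study reports as unique to non-endothelial nuclei, it names one in an intron of Dmd. That region was not matched here to the peaks that follow. The GFP- peaks in introns 1 and 2 of Dmd, at ranks 35.0 and 8.32, had no GFP+ counterpart. The third, of 1088 bp in intron 63 at chrX:85084137-85085224, had rank 84.9, above both Dmd start peaks, and met one of 228 bp in the GFP+ list, at rank 7.55. The GFP+ peak began downstream of the GFP- summit. The 300 bases around that summit are printed because they mark the strongest Dmd peak and lie outside the GFP+ one.
Dmd intron 63 region, chrX:85084319-85084618, plus strand: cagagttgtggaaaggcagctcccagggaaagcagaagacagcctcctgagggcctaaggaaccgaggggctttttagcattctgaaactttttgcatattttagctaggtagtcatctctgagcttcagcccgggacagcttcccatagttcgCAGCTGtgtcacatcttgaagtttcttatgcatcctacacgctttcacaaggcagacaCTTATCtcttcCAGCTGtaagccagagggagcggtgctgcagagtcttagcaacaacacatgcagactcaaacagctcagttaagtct

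This window held 2 matches to CAGCTG and 1 to GATAAG, and no MEF2 or CArG match. Of the windows of the same length around all 31973 GFP- intron summits, 29.0% held CAGCTG and 11.0% GATAAG.

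Sgcd, with 1079 kb of intron, carried 16 GFP- and 12 GFP+ peaks, and 10 of the 16 were overlapped. Its strongest intron peak, at chr11:47376999-47378333 in intron 1 of Sgcd-201, had rank 88.1 in GFP- and 85.5 in GFP+ nuclei, and another upstream of that transcript at chr11:47833292-47833620 had 72.3 and 74.5. Between the far start of Sgcd-203 and the main start lay the highest-ranked intron peak of the 8 genes that was found in 1 list alone. This peak of 615 bp at chr11:47705259-47705873 stood at rank 79.5 in the GFP- list. Among all GFP- intron peaks without a GFP+ peak, 19.7% ranked above 50. The highest of the 2 Sgcd peaks in the GFP+ list alone, in intron 2, had rank 21.6. The sequence around the summit of the GFP- peak at rank 79.5 is shown as the strongest intron region with a peak in the GFP- list alone. Its 1 match to CAGCTG is in capitals. A region without a called peak can still hold signal below the caller's threshold.
Sgcd GFP- only region, chr11:47705422-47705721, minus strand: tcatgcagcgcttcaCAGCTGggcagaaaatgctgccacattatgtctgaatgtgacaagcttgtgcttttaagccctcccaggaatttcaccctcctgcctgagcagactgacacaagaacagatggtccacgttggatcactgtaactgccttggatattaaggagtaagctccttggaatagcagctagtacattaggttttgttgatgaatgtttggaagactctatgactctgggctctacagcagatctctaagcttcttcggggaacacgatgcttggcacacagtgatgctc

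The smaller muscle genes had few intron peaks. Both GFP- intron peaks of Sgca were overlapped, the stronger at rank 76.7 by the long GFP+ start peak at rank 87.7. The only intron peak of Sgcb was a GFP- peak at rank 16.8 without a GFP+ counterpart. All 4 GFP- intron peaks of Sspn had a GFP+ counterpart, the strongest at ranks 65.2 and 60.9. Another Sspn pair, at 50.9 and 54.3, holds a start of the antisense gene Sspnos.

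Utrn was the gene with the most GFP+ intron peaks, 13 beside 15 in the GFP- list, and both lists had peaks of their own above rank 50 there. Of the GFP- peaks 8 were overlapped, and of the GFP+ peaks 9. Its 2 strongest GFP+ intron peaks, both in intron 2, had no GFP- counterpart. They lay at chr10:12781434-12781971 with rank 66.4 and at chr10:12809653-12810111 with rank 66.1. Among all GFP+ intron peaks without a GFP- peak, 9.81% ranked above 50. In the other direction, the highest-ranked Utrn peak in the GFP- list alone, at chr10:12787972-12788406, had rank 59.1 and lies in the same intron. The strongest GFP- intron peak, in intron 51, had rank 72.2 and met a GFP+ peak of 218 bp at rank 17.2, while a peak in intron 25 had 56.3 and 56.0. The first GFP+ region is printed as the strongest intron region with a peak in the GFP+ list alone. It held none of the 7 motifs and had a GC content of 41.3%. The ETS factor word searched was CGGAAG alone, and the region holds AGGAAG, which was not counted, so a lack of ETS sites cannot be read from this.
Utrn GFP+ only region, chr10:12781607-12781906, minus strand: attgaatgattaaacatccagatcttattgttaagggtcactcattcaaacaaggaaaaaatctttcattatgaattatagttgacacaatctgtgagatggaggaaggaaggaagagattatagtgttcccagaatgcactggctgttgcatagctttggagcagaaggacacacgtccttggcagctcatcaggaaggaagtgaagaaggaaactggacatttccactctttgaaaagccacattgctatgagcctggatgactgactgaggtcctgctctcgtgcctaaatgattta

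Dtna (chr18:23415135-23659715) had the lowest overlap of the genes with more than 1 GFP- intron peak. It had 11 GFP- and 2 GFP+ intron peaks, and 2 of the 11 were overlapped, a share of 18.2% (5.14 to 47.7), beside 65.9% over all genes. The shared pair were also its strongest, at ranks 82.7 and 80.7 in intron 3 and at 79.5 and 78.7 in intron 24. Of the 9 in the GFP- list alone, 8 had rank 50 or below, and the highest, in intron 18, had 57.6. Over all genes, 53.0% of GFP- intron peaks of rank 50 or below were overlapped, beside 83.9% of those above. Dag1 had 4 GFP- intron peaks, of which 3 were overlapped, the strongest at ranks 78.1 and 61.9 in intron 2.

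**Figure D3:**
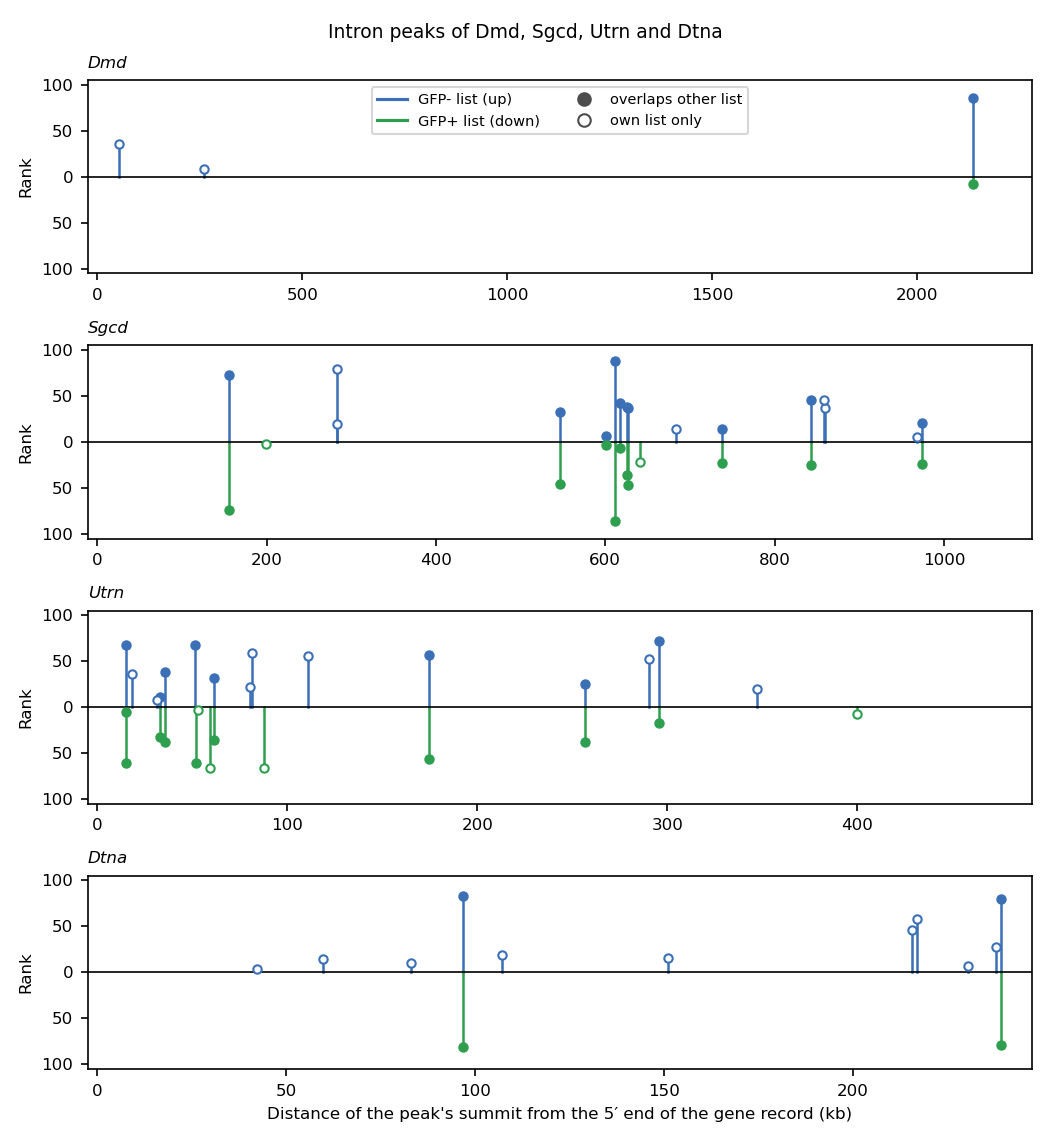
Intron peaks of Dmd, Sgcd, Utrn and Dtna by the distance of the summit from the first base of the gene record (x axis, kb, its own scale for each gene) and by rank in their own list (y axis, percentile), with GFP- peaks drawn upward and GFP+ peaks downward; filled points overlap a peak of the other list. Dmd shows 3 peaks up and 1 down, the highest at 84.9 facing one at 7.55, and Utrn shows 2 open points at 66.4 and 66.1 pointing down.

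Set side by side, 17 of 26 GFP- intron peaks of the muscle members were overlapped by a GFP+ peak, or 65.4% (46.2 to 80.6), and 13 of 30 of the widely expressed members, or 43.3% (27.4 to 60.8). The intervals overlap, and the gap of 22.1 points rested on Dtna, without which it was 7.49 points. The gap turned to -2.94 points when only peaks with an area of 400 or more were counted. With Dtna counted among the muscle members it was -6.54 points, so its sign depended on how the genes were grouped.

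**Figure D4:**
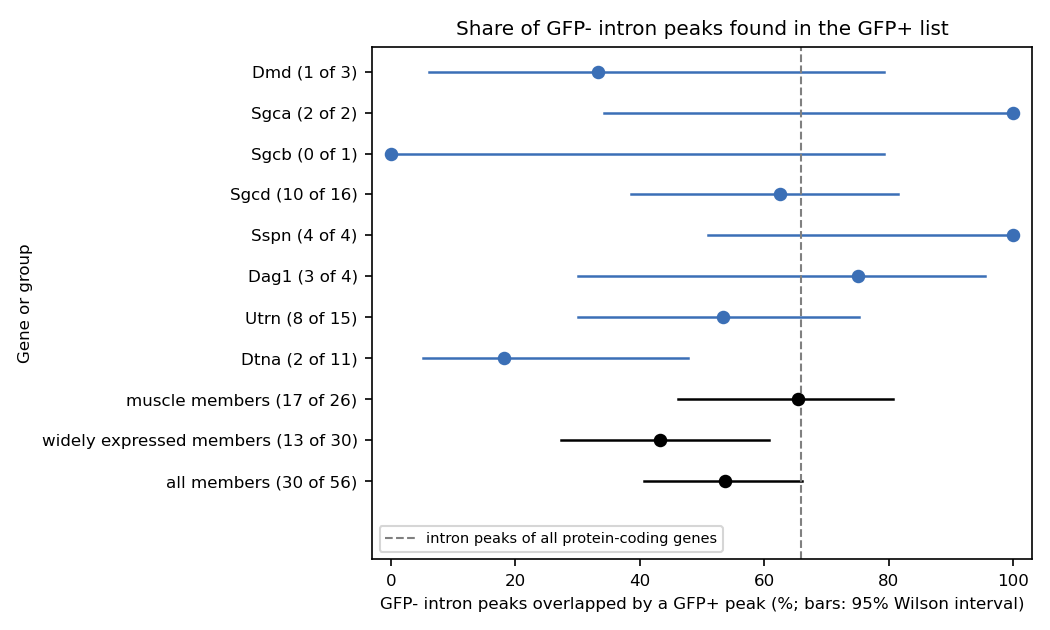
Share of GFP- intron peaks overlapped by a GFP+ peak (x axis, %) for each gene and group, with the counts beside the names; bars are 95% Wilson intervals for counting error only and the dashed line marks all protein-coding genes (65.9%). The interval of Dtna (5.14 to 47.7) and that of the widely expressed members (27.4 to 60.8) lie below the line, and those of Sgcd, Utrn and the muscle members span it.

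When overlapping intron peaks of the 2 lists were joined, the 8 genes had 62 regions, of which 30 were in both lists, 26 in the GFP- list alone and 6 in the GFP+ list alone. Over 37840 such regions of all protein-coding genes these classes took 58.4%, 30.1% and 11.5%. The rank was lower in GFP+ nuclei at 44 of the 62 regions, beside 67.1% of all regions, and the median difference was -6.97 points, beside -5.34. Over the 30 regions in both lists the median was -0.991, since a region absent from 1 list counts there as rank 0. By more than 20 points, 17 regions were lower in GFP+ nuclei, beside 26.2% of all regions, and 4 were higher, beside 8.37%. Of those 4, Utrn held 3 and Sgcd 1. All 11 regions of Dtna and all 3 of Dmd were lower in GFP+ nuclei, where a region without a GFP+ peak counts as lower.

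The sequence around the summits was compared with that of all intron peaks in windows of 300 bases. A MEF2 match lay in 9 of 56 GFP- windows and in 9 of 37 GFP+ windows of the 8 genes, or 16.1% and 24.3%, beside 7.68% and 8.48% of the windows of all protein-coding genes. Of these, Sgcd held 5 in the GFP- list and 6 in the GFP+ list, among them the window of its strongest shared peak. The rest lay in the widely expressed members Utrn (3 and 2) and Dtna (1 and 1). Dmd, Sgca, Sgcb, Sspn and Dag1 held none in either list, so the shares above come mostly from Sgcd. The windows of the 2 lists at shared regions cover largely the same bases and are not separate evidence. No window of the 8 genes held a CArG match, beside 1.77% and 1.70% over all genes. CAGCTG lay in 23.2% and 13.5% of the windows, beside 29.0% and 25.6%, CATTCC in 10.7% and 13.5%, beside 20.2% and 19.4%, and CGGAAG in 10.7% and 16.2%, beside 6.20% and 6.64%. GATAAG lay in 10.7% and 10.8% of the windows, beside 11.0% and 11.2%, and GGGCGG in 1.79% and 2.70%, beside 9.30% and 10.1%.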

How the data were processed

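Nuclei of 4 libraries were processed by the authors through fastp, Bowtie2 (version 2.3.5.1 in the submitters' processing notes, where the methods name another), SAMtools 1.19, Picard duplicate removal and downsampling, and Genrich in ATAC mode on mm10, which called 1 peak list per population from both replicates. The lists deposited by the authors give each peak a signal (the area, at least 200), a score limited to 1000 and reached by 83.9% and 82.0% of peaks, and a −log10 p of its summit. The number of reads in each peak is not in the lists, so no interval on a peak's strength can be given. Peaks were ranked here by area within each list with Python 3 code (pandas, numpy), assigned to GENCODE M21 transcripts and compared by overlap, and the code was tested on simulated peaks. No peak ran past a chromosome end of GRCm38.p6. The members and lists were chosen with earlier results of these data known. Named genes were all 8 members, those of the other complex genes open in 1 list alone or with the 3 largest rank differences, the cell type markers, and for each member the strongest intron peak of each list and the strongest found in 1 list alone. Cav3, Sgcz, Agrn and Hspg2 were named after their values were seen, and single values of some listed genes are not reported here. Intervals are 95% Wilson intervals.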

Additional observations from a re-analysis of the deposited data

How the results depend on the processing

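No paired analysis was possible because each list pools both replicates, and for the same reason no replicate could be left out. All 8 genes kept a start peak in both lists in every alternative tried except where only the first base of the gene record counted as a start, which left 6. The gap between muscle and widely expressed members in median start rank difference, -0.507 points, turned to 0.0242 with Sgcb counted as widely expressed, 0.645 with only the first base of the gene record, 0.274 with ranks by −log10 p, 0.862 by area per bp and 0.359 by length. Their gap of 22.1 points in overlapped GFP- intron peaks turned to -2.94 with peaks of area 400 or more and to -6.54 with Dtna among the muscle members. It was 4.40 in the 50000 largest peaks of each list, 9.17 by the median of the genes' own shares and 7.49 without Dtna, the last chosen after seeing the data. The 56 GFP- intron peaks fell to 33 at area 400 or more and to 27 in the 50000 largest, and the 37 GFP+ peaks to 22 and to 26, so that at equal list length the counts were 27 and 26. The GFP+ share of 83.8% was 67.6% with an overlap of 50% of both peaks and 61.5% in the 50000 largest. The shares over all genes at these settings are not given here, so a shift particular to these genes cannot be read from them. The median region difference of -6.97 was -0.991 over the 30 regions in both lists. The cause of these shifts was not tested beyond what each setting removes. Differences between the strongest start peaks depended on the measure: Sgca, whose strongest peaks by area lie at different starts in the 2 lists, differed by 3.69 points by area, -14.6 by area per bp and 25.0 by length, and Sspn by -8.01, -28.0 and -0.555.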
